A study of Mus musculus with 80 samples.

Results

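Tumours with 1 normal copy of E2f3 were compared with tumours that were wild type for the E2F genes. The comparison took the 20 arrays labelled E2F3 heterozygous and the 20 labelled wild-type, 40 of the 80 arrays in the series. All 40 came from mammary gland tumours of FVB mice with the MMTV-Myc transgene, which places the Myc oncogene under the mouse mammary tumour virus promoter and is active mainly in mammary epithelium. The wild-type controls therefore carried the same oncogene. The remaining 40 tumours, 20 E2F1 null and 20 E2F2 null, carried MMTV-Myc as well and served as further references. Tumours were frozen at endpoint, and total RNA was hybridised to 1 Affymetrix array per tumour. Ages, the exons removed from E2f3 and the backcross history of the alleles were not given in the labels. Each title opens with a number, called the title number here. The heterozygous tumours had 10 title numbers, of which 3 marked 1 tumour, 4 marked 2 and 3 marked 3. The wild-type tumours had 16, of which 13 marked a single tumour. What the number stands for was not stated, and tumours that share it may not be independent, so p-values measure the spread between these tumours and title numbers.

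E2F3 is a transcription factor that, with a DP partner, binds promoters of genes for S phase entry. The retinoblastoma protein and its relatives p107 and p130 hold E2F factors inactive until cyclin D and cyclin E kinases phosphorylate them, and the E2f and cyclin E genes are themselves E2F targets. Myc drives the same G1 to S transition and raises transcription of several E2f genes.

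Signals are given as log2(value + 5), and fold changes are differences on that scale from limma, with the standard error (SE). Both groups had similar arrays: the median log2 value ran from 7.09 to 7.51 in heterozygous and from 6.97 to 7.51 in wild-type tumours. The mean correlation of an array with the other 39 was 0.903 ± 0.0133 (SD, n = 20) and 0.900 ± 0.0184 (SD, n = 20). Arrays that shared a title number had a median correlation of 0.914 in heterozygous tumours, against 0.900 for pairs with different numbers. In wild-type tumours the medians were 0.9329 over 5 pairs that shared a number and 0.8965 for pairs with different numbers. The label of mammary epithelium matched its markers, as Krt8, Krt18 and Epcam passed the signal threshold of 74.6 in all 20 tumours of both groups. The heterozygous means were 13.3, 13.3 and 12.4. T-cell markers lay below the threshold: Cd3e and Cd8a passed it in 0 tumours and Cd3g in 1 of 40. A tumour piece holds many cell types, and fewer cells of a type cannot be told apart from less RNA per cell.

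Across the transcriptome, 0 of 8769 tested genes (0.0%) passed an adjusted p of 0.05 by limma with Benjamini-Hochberg adjustment. At an unadjusted p under 0.05 there were 58 genes (0.661%), 40 higher (0.456%) and 18 lower (0.205%) in heterozygous tumours, where 5% of the tested genes would be 438. In direction, 53.2% of all tested genes were higher and 46.8% lower. The adjusted count was also 0 with other pseudocounts, filters, normalization, block, moderation or choice of probe set, and without each title number in turn. The median SE of a fold change was 0.12. The genes with the smallest p were AW209491, Yae1d1 and Ccne2, which lie on chromosomes 13, 13 and 4, and 2 of these share the chromosome of E2f3.

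E2f3 itself was measured by 1 probe set, with a signal close to the threshold. Its log2 signal had a lowest value of 5.58, a median of 6.73 and a highest of 6.99 in heterozygous tumours. In wild-type tumours these were 6.02, 6.71 and 7.19. The medians were nearly equal and the groups overlapped widely, with 3 heterozygous tumours below every wild-type tumour. Those 3 carried title numbers 4140 and 4472. The fold change was -0.19 (SE 0.12, unadjusted p = 0.115, adjusted p = 1.0 by limma). Averaged by title number, E2f3 was 6.59 ± 0.31 (SD, n = 10) against 6.70 ± 0.26 (SD, n = 16), and a two-sided permutation test gave p = 0.31. Over single tumours, which ignores shared title numbers, the difference was -0.21 and the same permutation test gave p = 0.0667. The signal passed the threshold in 15 of 20 heterozygous and 19 of 20 wild-type tumours. Against wild type, the loss of 1 copy was therefore not visible as a difference beyond the spread. Whether the mutant allele still yields RNA that this probe set detects was not given in the labels and was not tested. In the E2F1 null and E2F2 null tumours E2f3 was 6.84 ± 0.37 and 6.84 ± 0.31 (SD, n = 20 each). Against the mean of the other 3 backgrounds the fold change was larger in size, -0.28 (SE 0.10, p = 0.993 by limma after adjustment over all tested genes).

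The promoter of the targeted gene is shown with those of the pair of chromosome 13 genes with the smallest p, to show which of them hold the letters of a known E2F site. The 250 bases before each start are from the RefSeq promoter table of GRCm38.p6, and capitals mark a match to an E2F site, searched as TTTCCCGC, TTTCGCGC, TTTGCCGC or TTTGGCGC on both strands, where matches on opposite strands may overlap. They lie at chr13:29986064-29986313 on the minus strand for E2f3, chr13:14629995-14630244 on the plus strand for AW209491 and chr13:17993352-17993601 on the minus strand for Yae1d1.
E2f3: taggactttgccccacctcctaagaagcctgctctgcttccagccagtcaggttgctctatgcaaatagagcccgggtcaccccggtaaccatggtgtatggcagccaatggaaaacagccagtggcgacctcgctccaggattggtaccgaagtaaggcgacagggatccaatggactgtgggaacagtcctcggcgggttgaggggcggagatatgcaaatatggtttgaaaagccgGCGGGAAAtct
AW209491: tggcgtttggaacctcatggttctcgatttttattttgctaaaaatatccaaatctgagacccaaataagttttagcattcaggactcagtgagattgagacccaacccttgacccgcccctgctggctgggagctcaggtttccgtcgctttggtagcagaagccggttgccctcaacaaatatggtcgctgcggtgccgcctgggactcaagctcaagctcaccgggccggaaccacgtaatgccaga
Yae1d1: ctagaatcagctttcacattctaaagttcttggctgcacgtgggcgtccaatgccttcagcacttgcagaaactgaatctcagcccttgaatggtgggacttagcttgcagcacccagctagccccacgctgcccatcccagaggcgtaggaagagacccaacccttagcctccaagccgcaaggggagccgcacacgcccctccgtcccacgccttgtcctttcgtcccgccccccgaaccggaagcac
The E2f3 window shown holds 1 match, on the reverse strand, with its first base 11 bases before the start. The window of a second E2f3 start in that table, not shown, holds 0. Those of AW209491 and Yae1d1 hold 0. Such a match stood in 2.16% of 27025 genes in the promoter table and in 4.1% of the 7104 tested genes found there. Of the 291 tested genes with a match, 161 were higher and 130 lower in heterozygous tumours. An unadjusted p under 0.05 was found for 0 of them, where the share over all tested genes was 0.661%. Their median fold change was 0.01 against 0.01 for tested genes without a match. Ccne2 has no entry in the promoter table and could not be among them. The window of the E2F target Ccne1, searched in the same way, also holds 0, so this search can miss an E2F target. The window listed for E2f1 reads as protein-coding sequence of that gene, so it cannot show whether the E2f1 promoter holds a match.

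**Figure D1:**
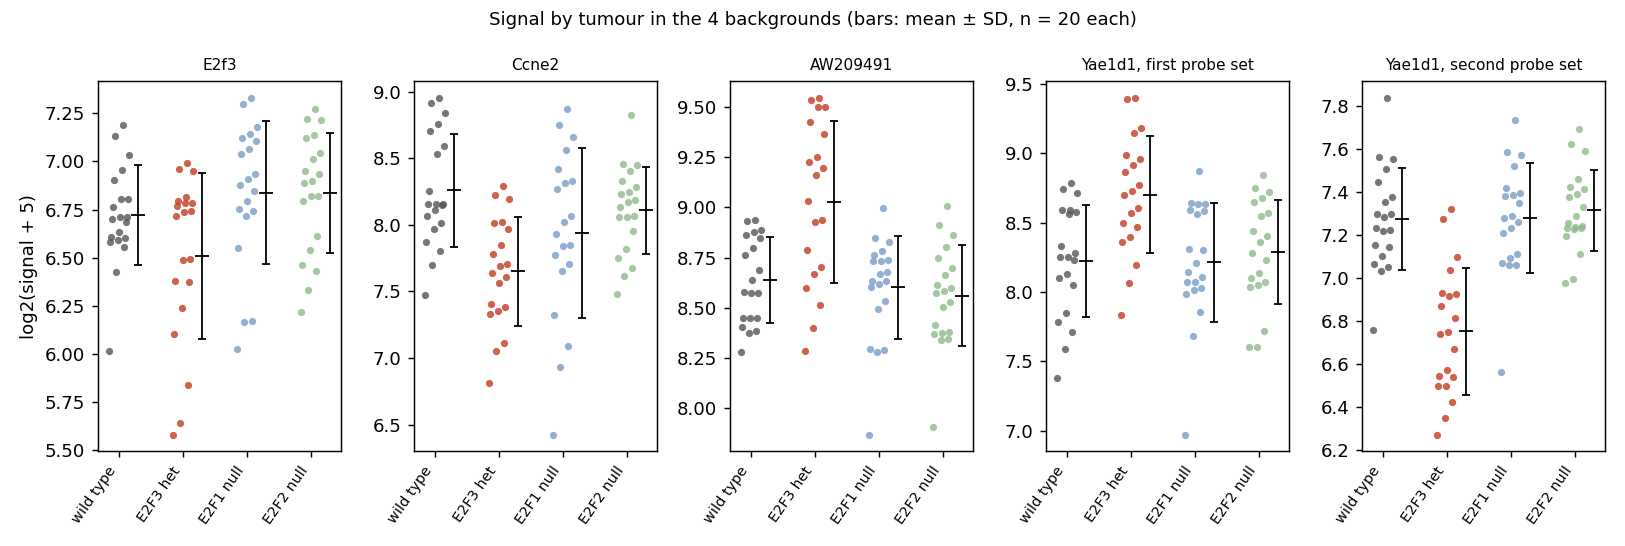
Signal of 4 genes, 1 point per tumour, on the log2(signal + 5) axis, for wild-type, E2F3 heterozygous, E2F1 null and E2F2 null tumours; bars are means with SD, n = 20 each. The 20 heterozygous tumours overlap the others for E2f3 and reach higher for AW209491, where 11 lie above every wild-type tumour, and lower for the second Yae1d1 probe set, where 11 lie below every wild-type tumour.

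Among the E2F factors and pocket proteins, 10 genes were tested and 0 passed the adjusted threshold. Of these, 3 were higher and 7 lower, with a median fold change of -0.04 against 0.01 for all tested genes. Without title number 4140, 5 were higher and 5 lower, with a median of -0.0055, and with 1 mean per title number the median was -0.0031. The activator E2f1 was 7.25 ± 0.29 (SD, n = 20) in heterozygous and 7.13 ± 0.26 in wild-type tumours (fold change 0.11, SE 0.11, unadjusted p = 0.304). Its second probe set had a fold change of 0.26 (SE 0.14). The repressors E2f4, E2f5 and E2f6 had fold changes of 0.03, -0.01 and -0.09, with SE of 0.10, 0.08 and 0.10. E2f4 turned to -0.01 after quantile normalization and E2f5 to 0.02 with 1 mean per title number. E2f8, an atypical repressor that rises in S phase, was at -0.11 (SE 0.12). The DP partner Tfdp1 was at -0.05 (SE 0.09). None of these fold changes had an unadjusted p under 0.05.

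The pocket proteins also showed 0 calls. Rb1, the retinoblastoma gene, ranged from 9.18 through a median of 10.07 to 11.59 in heterozygous tumours and from 8.28 through 9.67 to 11.53 in wild-type tumours. The 2 ranges overlapped almost fully and the fold change of 0.42 had an SE of 0.28 (unadjusted p = 0.141). Rbl1, which encodes p107, was at -0.08 (SE 0.10). Rbl2, which encodes p130, was at -0.04 (SE 0.12), and at 0.04 when all its detected probe sets were averaged.

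The cyclins and kinases upstream of the pocket proteins held 22 tested genes, 9 higher and 13 lower, with a median of -0.01 that turned above 0 in 8 of the 26 fits without 1 title number and with 1 mean per title number (0.04). One of them, Ccne2, had an unadjusted p under 0.05. Ccne2 encodes cyclin E2, which activates Cdk2 at the start of S phase. Its signal ran from 6.81 through a median of 7.66 to 8.29 in heterozygous tumours, and from 7.47 through 8.16 to 8.95 in wild-type tumours. The heterozygous range was shifted down, with 7 tumours from 5 title numbers below every wild-type tumour, and the rest inside it. At least 7 such tumours were found for 8 of 8769 genes (0.0912%). The fold change was -0.57 (SE 0.15, unadjusted p = 0.000413, adjusted p = 1.0 by limma), which is 1.48-fold lower. Averaged by title number it was 7.72 ± 0.32 (SD, n = 10) against 8.18 ± 0.37 (SD, n = 16). Over the fits without 1 title number it stayed between -0.64 and -0.51. Ccne2 was 7.94 ± 0.64 in E2F1 null and 8.11 ± 0.33 in E2F2 null tumours (SD, n = 20 each), and the fold change against the mean of the other 3 backgrounds was -0.43 (SE 0.13), which also missed the adjusted threshold.

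Its paralogue Ccne1, cyclin E1, was 7.76 ± 0.50 against 7.98 ± 0.44 (SD, n = 20 each), a fold change of -0.20 (SE 0.15, unadjusted p = 0.176). Their partner kinase Cdk2 was at 0.11 (SE 0.09). The D cyclins, which act earlier in G1, had fold changes of 0.09 for Ccnd1, -0.05 for Ccnd2 and 0.06 for Ccnd3. The spread of Ccnd1 was wide, from 8.51 to 12.65 in heterozygous and from 8.39 to 12.29 in wild-type tumours. Ccnd1 and Ccnd2 each turned sign without single title numbers. Cdk4, the D-cyclin kinase, was at -0.06 (SE 0.08). Ccna2, which follows cyclin E in S phase, was at -0.01 (SE 0.13), and at 0.09 with 1 mean per title number. The inhibitors Cdkn1a, Cdkn2a and Cdkn1b were at -0.28, -0.21 and -0.05, with SE of 0.42, 0.35 and 0.16. The other G1 cyclins thus ranged from -0.20 to 0.09, and the difference between their fold changes and that of Ccne2 was not tested.

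**Figure D2:**
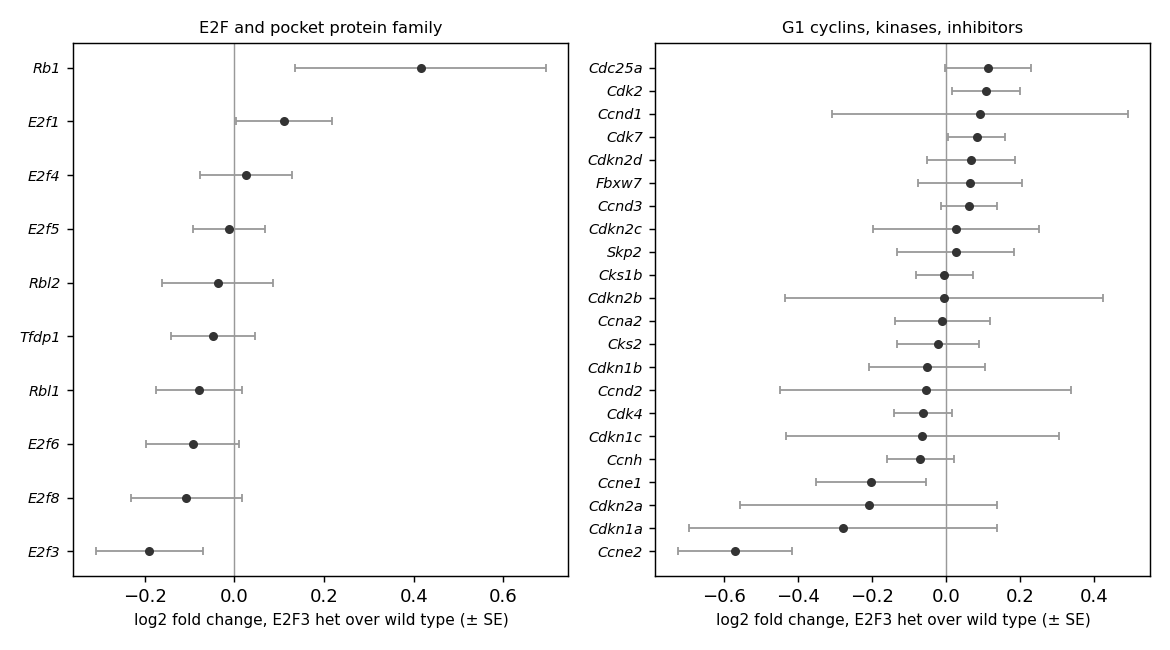
Fold changes (log2, E2F3 heterozygous over wild type) with SE for the 10 tested E2F and pocket protein genes and the 22 tested G1 genes. Ccne2, at -0.57, is the gene farthest from 0 and the only one of them with an unadjusted p under 0.05.

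Downstream of E2F, the 47 tested DNA replication genes were 27 higher and 20 lower, with a median fold change of 0.01 and 0 with an unadjusted p under 0.05. Pole and Lig1, a replicative polymerase and a ligase, were at 0.17 (SE 0.12) and 0.16 (SE 0.13). The helicase subunit Mcm7 was at 0.10 (SE 0.09), and the sliding clamp Pcna at -0.08 (SE 0.10). Of 50 mitosis genes, 36 were higher, with a median of 0.04. Among them Pttg1, the securin gene, was at 0.14 (SE 0.10) and Cdc20, which activates the anaphase-promoting complex, at 0.08 (SE 0.12). DNA repair genes were 14 higher and 11 lower, with Timeless at 0.17 (SE 0.10) and Brca2 at 0.15 (SE 0.11). These values are small beside the tumour spread: replication scores, the mean deviation of the list in a tumour, ran from -0.69 to 0.41 in heterozygous and from -0.74 to 0.53 in wild-type tumours.

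The directions moved with single title numbers. The 3 tumours of heterozygous number 4140 had replication scores with a median of -0.47, against 0.01 in the other 17 heterozygous tumours and -0.02 in wild type. Without 4140, 38 of 47 replication genes and 48 of 50 mitosis genes were higher, with medians of 0.09 and 0.10. Without wild-type number 4033, 18 of 47 and 24 of 50 were higher, with medians of -0.02 and -0.0033. With 1 mean per title number the counts were 42 and 49. The replication median turned below 0 in 5 of the 26 fits without 1 title number, the DNA repair median in 8 and the mitosis median in 1. In each case 0 genes passed the adjusted threshold.

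Myc target and ribosome biogenesis genes were 39 lower and 9 higher of 48, with a median of -0.03. The rRNA methyltransferase gene Nop2 was at -0.18 (SE 0.11) and Nme1 at -0.12 (SE 0.09). This direction also rested on 4140, without which 25 of 48 were higher and the median was below 0.01 in size. Without wild-type number 4033, 3 were higher. Myc itself was 13.46 ± 0.26 against 13.48 ± 0.22 (SD, n = 20 each), a fold change of -0.02 (SE 0.09) that turned sign without single title numbers. Whether this probe set detects the transgene, the endogenous gene or both was not given in the labels. In the p53 and apoptosis list, 12 of 29 genes were higher (median -0.03), with Bak1 at 0.21 (SE 0.12) and Ccng1 at -0.16 (SE 0.15). That count was 7 without 4140 and 16 without wild-type number 3881. Of 48 oxidative phosphorylation genes, 40 were lower, with a median of -0.04, and without 4140 25 were higher and 23 lower.

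On chromosome 13, which carries E2f3, 311 genes were tested. A total of 4 had an unadjusted p under 0.05, and they lay between 5 and 20 Mb from E2f3, where they were 4.6% of 87 tested genes. Among genes on other chromosomes the share was 0.638% of 8458. Of the 20 genes within 5 Mb 0 had such a p, nor did any of the 203 beyond 20 Mb. The 20 Mb limit was set after the values were seen, so the 4.6% cannot be compared with the share elsewhere. Over the whole chromosome the 4 stood among 311 tested genes. Chromosome 16 had more, 6 of 285 tested genes. Distances are between the lower coordinates of the genes in the RefSeq table of GRCm38.p6, since the deposited table names no build.

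AW209491, 15.28 Mb on the lower-coordinate side of E2f3, had the smallest p of all tested genes. Its signal ran from 8.29 through a median of 9.10 to 9.54 in heterozygous tumours, and from 8.28 through 8.61 to 8.94 in wild-type tumours. Of the heterozygous tumours 11, from 8 of the 10 title numbers, lay above every wild-type tumour, and the others lay inside the wild-type range. It was the only one of 8769 genes (0.0114%) with at least 11 heterozygous tumours above all wild-type tumours. The fold change against wild type was 0.39 (SE 0.10, unadjusted p = 0.000142, adjusted p = 1.0 by limma), or 1.31-fold higher. The E2F1 null and E2F2 null tumours had 8.60 ± 0.26 and 8.56 ± 0.25 (SD, n = 20 each), close to the 8.64 ± 0.21 of wild type.

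Against the mean of the other 3 backgrounds AW209491 rose by 0.43 (SE 0.08, adjusted p = 0.0048 by limma). This comparison called 3 of 8769 genes (0.0342%) and had 202 (2.3%) at an unadjusted p under 0.05. It shares the heterozygous and the wild-type arrays with the first. The other genes called, Rbbp9 and Mapre1, stood apart in the E2F1 null tumours. Rbbp9 was 8.27 ± 0.42 there, against 6.26 ± 0.38 in heterozygous, 6.37 ± 0.40 in wild-type and 6.26 ± 0.31 in E2F2 null tumours (SD, n = 20 each). Mapre1 was 10.42 ± 0.32 there, against 11.32 ± 0.20, 11.35 ± 0.19 and 11.26 ± 0.12. With 1 mean per title number the adjusted p of AW209491 was 0.0729, and without title number 3702 it was 0.0687, while each other fit tried gave a value between 0.000622 and 0.0378.

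Yae1d1, which encodes an adaptor for the iron-sulfur protein Abce1, lay 11.92 Mb from E2f3 on the same side. Its 3 probe sets did not move together. By the first and brightest, the signal ran from 7.84 through a median of 8.71 to 9.40 in heterozygous tumours and from 7.38 through 8.25 to 8.78 in wild-type tumours. Here 8 heterozygous tumours lay above every wild-type tumour. At least 7 did for 13 of 8769 genes (0.148%), and the share with at least 8 was not counted. The fold change was 0.50 (SE 0.14, unadjusted p = 0.000437, adjusted p = 1.0).

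By the second probe set, the signal ran from 6.27 through a median of 6.74 to 7.32 in heterozygous tumours, and from 6.76 through 7.26 to 7.84 in wild-type tumours. A total of 11 heterozygous tumours from 6 title numbers lay below every wild-type tumour, as for no other of the 14092 probe sets. This probe set fell by 0.50 (SE 0.09, adjusted p = 0.00198 by limma), and was the only 1 called among 14092 detected probe sets (0.0071%). The adjusted p ranged from 0.000105 to 1.0 over the alternatives and from 0.000287 to 0.0378 over the fits without 1 title number. The call was lost with 1 mean per title number (fold change -0.42, adjusted p = 1.0) and with only the 40 arrays (-0.49, adjusted p = 0.131). A stricter filter removed this probe set, whose signal lay close to the threshold, 6.31 on this scale. It passed the threshold in 19 of 20 heterozygous tumours. The third was 7.76 ± 0.37 against 7.64 ± 0.52 (SD, n = 20 each), with a fold change of 0.15 (SE 0.14, unadjusted p = 0.281). The probe sets differed in direction, so none is given for the gene. Averaged over its detected probe sets, Yae1d1 had a fold change of 0.05.

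The 3 chromosome 13 patterns (AW209491 above, the first Yae1d1 probe set above and the second below every wild-type tumour) occurred in different combinations. All 3 were present in 5 of 20 heterozygous tumours, at least 1 in 15 and none in 5. The 8 tumours with a high first Yae1d1 probe set were all among the 11 with high AW209491. Of the 11 with a low second Yae1d1 probe set, 7 had high AW209491. The 2 title numbers in which no tumour showed any pattern were 4032 and 4194. Low Ccne2 occurred with high AW209491 in 5 tumours, and low E2f3 in 2 of its 3.

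Ggps1 encodes geranylgeranyl diphosphate synthase and lies 15.86 Mb from E2f3 on the same side as AW209491, with other tested genes between them. Ggps1 was 8.01 ± 0.29 against 8.24 ± 0.21 (SD, n = 20 each). Its fold change of -0.23 (SE 0.10, unadjusted p = 0.021) came from the brightest of 4 probe sets. The others gave 0.08, -0.03 and 0.04. Kif13a, a kinesin gene 16.84 Mb on the opposite side, was at 0.21 (SE 0.10, unadjusted p = 0.0486). Closer to E2f3, the fold changes of the 20 genes within 5 Mb ran from -0.23 to 0.38, with 10 higher and 10 lower. Uqcrfs1, the Rieske subunit of respiratory complex III, at 0.63 Mb, was at -0.23 (SE 0.12) and Bphl, at 4.13 Mb, at -0.22 (SE 0.12). Sox4, a neighbour at 0.96 Mb that is itself a transcription factor gene, was at 0.02 (SE 0.08). Mboat1, at 0.23 Mb, was at 0.28 (SE 0.21), Cdkal1 at -0.05 (SE 0.11), and Mrs2 at -0.03 (SE 0.13). Chromosome 13 as a whole had 171 higher and 140 lower genes, a median of 0.01.

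**Figure D3:**
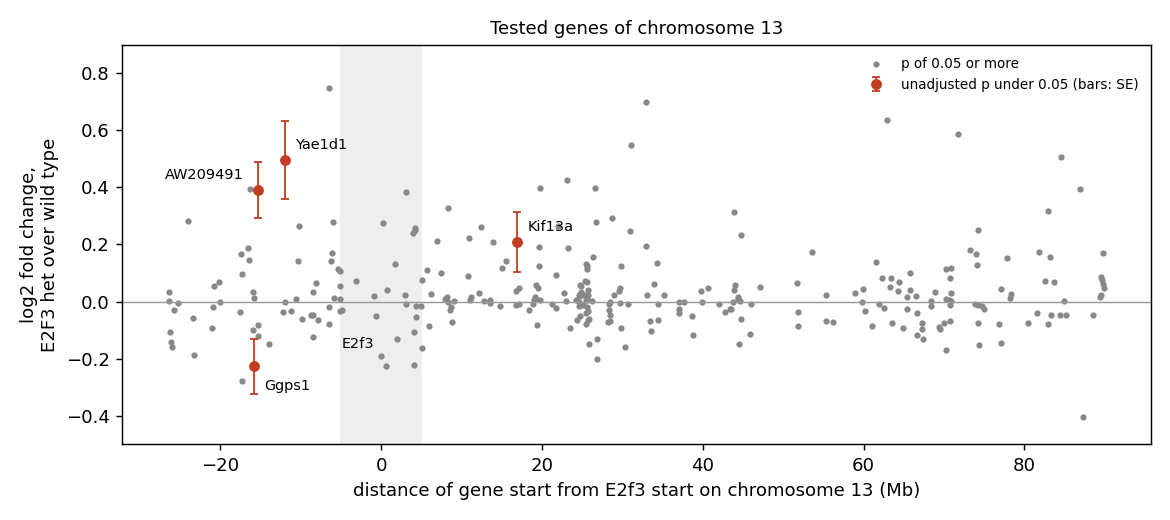
Fold change (log2, E2F3 heterozygous over wild type) of the tested chromosome 13 genes against the distance of their start from that of E2f3, in Mb; the grey band covers 5 Mb on each side and bars are SE. The 4 genes with an unadjusted p under 0.05, in red, lie outside the band and within 20 Mb.

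Beyond chromosome 13, other genes were named by their small unadjusted p. Among the higher ones, Chil3, which encodes a chitinase-like protein of myeloid cells, was 6.21 ± 1.78 against 4.86 ± 1.22 (SD, n = 20 each; fold change 1.36, SE 0.54, unadjusted p = 0.014). Its heterozygous values ran from 4.23 to 11.12 with a median of 5.72, and 4 tumours exceeded the wild-type maximum of 6.94. The share of genes with 4 such tumours was not counted. Both means and this median lay below the signal threshold, 6.31 on this scale. Sel1l3 was at 0.62 (SE 0.22), Abca7, a lipid transporter gene, at 0.54 (SE 0.22), Dnajc17 at 0.46 (SE 0.17) and Sorbs3, which encodes vinexin, at 0.44 (SE 0.18). Dpp3, a dipeptidyl peptidase gene, had 7 heterozygous tumours above every wild-type tumour at a fold change of 0.23 (SE 0.09). The lysosomal transporter gene Spns1 likewise had 7, at 0.21 (SE 0.08). At least 7 such tumours were found for 13 of 8769 genes (0.148%).

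Among the lower ones, Mmaa, which acts in cobalamin metabolism, ran from 6.68 through a median of 7.52 to 7.83 in heterozygous and from 7.48 through 7.76 to 8.06 in wild-type tumours. A total of 9 heterozygous tumours lay below every wild-type tumour, and the fold change was -0.26 (SE 0.09, unadjusted p = 0.0051). At least 9 such tumours were found for 2 of 8769 genes (0.0228%). Acadsb, a mitochondrial acyl-CoA dehydrogenase gene, was at -0.26 (SE 0.10). Pdrg1 was at -0.29 (SE 0.13), with 7 heterozygous tumours below and 1 above the wild-type range. At least 7 below it were found for 8 of 8769 genes (0.0912%). Jmjd8 was at -0.33 (SE 0.13), Peli2, a pellino ubiquitin ligase gene, at -0.71 (SE 0.30), and Psmd5, which encodes a proteasome assembly chaperone, at -0.15 (SE 0.06). All of these had an adjusted p of 1.0 by limma.

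Among the cell type lists, those of skeletal muscle, neutrophil and fibroblast genes and a short B-cell list had the largest medians, each above 0. Of 30 skeletal muscle genes, 29 were higher, with a median fold change of 0.55. Acta1, skeletal actin, was 8.59 ± 2.49 against 7.77 ± 2.33, and Tnni2, a fast troponin, 6.43 ± 1.77 against 5.53 ± 1.97 (SD, n = 20 each). The wild-type mean of Tnni2 lay below the signal threshold, which is 6.31 on this scale. Muscle scores ran from -1.27 through 0.27 to 2.60 in heterozygous and from -1.47 through -0.43 to 2.22 in wild-type tumours, so the groups overlapped and 1 heterozygous tumour exceeded all wild type. All 15 neutrophil genes were higher, with a median of 0.36 and Lcn2 lowest at 0.0020. S100a9, a calprotectin subunit, was 7.94 ± 1.52 against 7.07 ± 1.81, and Csf3r, the G-CSF receptor, 6.70 ± 0.79 against 6.33 ± 0.72 (SD, n = 20 each). Without 4140, 27 of 30 muscle genes were higher (median 0.56) and 12 of 15 neutrophil genes (median 0.19). With a pseudocount of 32 the muscle median was 0.32 and the neutrophil median 0.25. Many members had low signal: a stricter filter left 14 muscle genes (median 0.60) and 5 neutrophil genes (median 0.58), all higher.

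The stromal lists depended more on that number. Fibroblast and matrix genes were 32 higher of 37 (median 0.26), with Col3a1 at 0.40 (SE 0.30) and Dpep1 at 0.71 (SE 0.45). Without 4140, 19 of 37 were higher, with a median of 0.01. The fibroblast scores of its 3 tumours ran from 1.38 to 2.19, against medians of 0.08 in the other heterozygous and 0.12 in the wild-type tumours, whose maximum was 2.54. Genes of epithelial to mesenchymal transition were 23 higher of 26 (median 0.22), with Tgfb3 at 0.45 (SE 0.26), and 15 without 4140 (median 0.01). The median was 0.34 without wild-type number 3885. Macrophage genes were 30 higher of 36 (median 0.09), with Mrc1 at 0.43 (SE 0.32) and Cd163 at 0.51 (SE 0.39). They were 8 higher and 28 lower without 4140 (median -0.10), and 16 higher without wild-type number 4112 (median -0.0065). Endothelial genes went from 19 to 10 higher of 25, with Pecam1 at 0.21 (SE 0.20) and the lymphatic marker Lyve1 at 0.39 (SE 0.41). Basal genes went from 17 to 9 higher of 21. Krt5, a basal keratin, was 8.65 ± 1.61 against 8.08 ± 1.92 (SD, n = 20 each), and Jag2, a Notch ligand gene, was at 0.44 (SE 0.20, unadjusted p = 0.0287). Whether the amount of non-tumour tissue in these pieces bears on the gene differences above was not tested.

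Luminal genes were 16 higher and 10 lower (median 0.02), and 11 higher without heterozygous number 4472 (median -0.02). Cldn4, a tight junction gene, was 9.50 ± 0.56 against 9.15 ± 0.42 (SD, n = 20 each), with a fold change of 0.33 (SE 0.19). For Cldn4, 9 heterozygous tumours lay above every wild-type tumour. At least 7 did for 13 of 8769 genes (0.148%), and the share with at least 9 was not counted. Milk genes were 20 higher of 23 (median 0.18). Without heterozygous number 4041 they were 13 higher with a median of 0.02, and without wild-type number 3274 the median was 0.33. It was 0.07 with a pseudocount of 32. Wap, whey acidic protein, ran from 6.62 through 10.82 to 13.86 in heterozygous and from 5.56 through 10.21 to 13.90 in wild-type tumours, with a fold change of 1.00 (SE 0.89). Csn3, kappa-casein, was at 0.04 (SE 0.21), and turned sign without single title numbers.

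Interferon response genes were 40 higher of 47 (median 0.14), with Gbp2, an interferon-induced GTPase gene, at 0.38 (SE 0.40) and B2m, of MHC class I, at 0.03 (SE 0.20). One tumour stood apart here: heterozygous replicate 9, of title number 4031, had a score of 2.40, the next highest heterozygous score was 1.32, and the wild-type maximum was 1.30. The mean score difference was 0.18 with it and 0.05 without it, an exclusion chosen after the data were seen. Averaged by title number, the difference was 0.03, and the list median with 1 mean per title number was 0.02. Without heterozygous number 4472, 26 of 47 were higher, with a median of 0.0099, and without 3702 the median was 0.27.

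**Figure D4:**
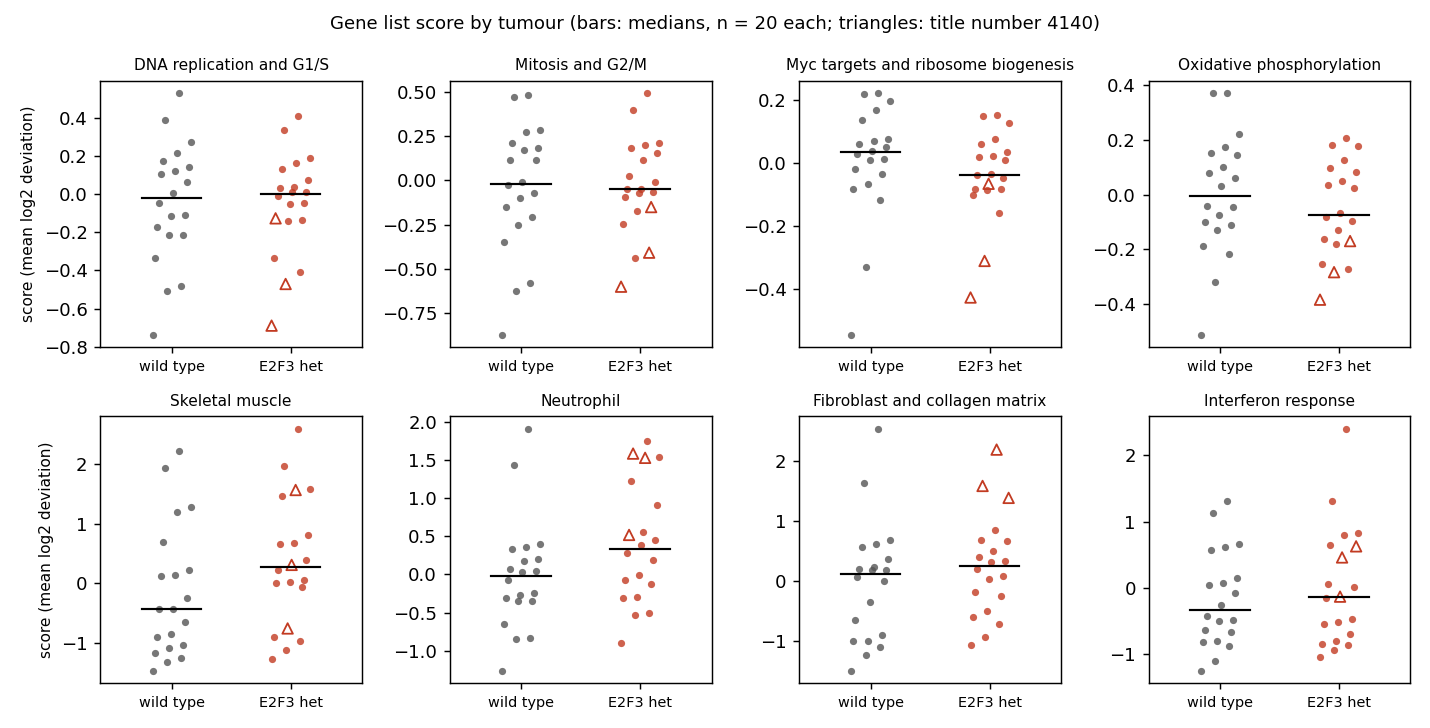
Score of 8 gene lists, the mean log2 deviation of the members from their mean over the 80 arrays, 1 point per tumour; bars are medians of 20 tumours and triangles mark the 3 tumours of title number 4140. The groups overlap in every panel, and the triangles are the highest heterozygous fibroblast scores, 1.38 to 2.19, below a wild-type maximum of 2.54, and lie between -0.69 and -0.13 among the replication scores, where the lowest wild-type tumour is at -0.74.

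By chromosome, the tumour scores of the genotypes overlapped throughout. Chromosome 6 had the most one-sided counts, 128 genes higher and 331 lower with a median of -0.06, but the scores of its tumours ran from -0.25 to 0.32 in heterozygous and from -0.28 to 0.36 in wild-type tumours. Chromosome 15, which carries Myc, ran from -0.38 to 0.36 and from -0.35 to 0.35. Heterozygous replicate 9 had the lowest chromosome 14 score, -0.44, against a wild-type minimum of -0.16. The same tumour had the highest chromosome 16 score, 0.37, against a wild-type maximum of 0.25. Chromosome 14 carries Rb1, and whether this score bears on Rb1 was not tested.

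**Figure D5:**
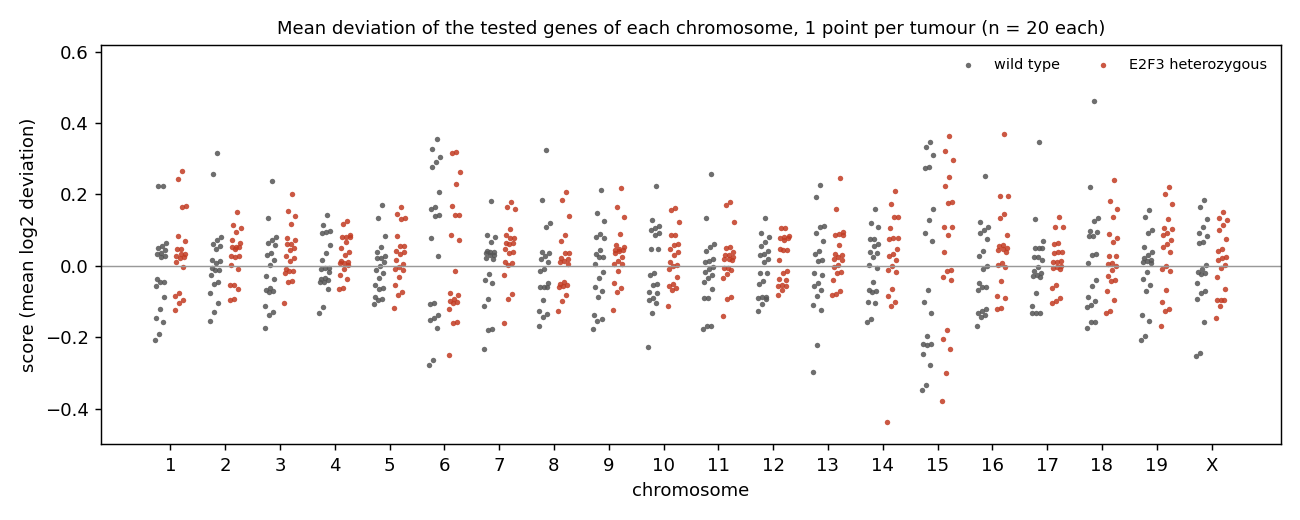
Mean log2 deviation of the tested genes of each chromosome from their mean over the 80 arrays, 1 point per tumour, for wild-type (grey) and E2F3 heterozygous (red) tumours, n = 20 each. Both genotypes spread widely on chromosomes 6 and 15, and 1 heterozygous tumour lies at -0.44 on chromosome 14.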

How the data were processed

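Gene expression was measured on 80 one-colour Affymetrix arrays, 20 per genotype. The deposited table holds intensity values on a linear scale, made with MAS5 in Affymetrix Expression Console per the submitters' processing notes; no version was given. The authors scaled each array to a trimmed mean of about 500, so a change in total mRNA per cell cannot be seen. Of 22690 probe sets, 64 controls were left out. Probe sets named by 1 gene symbol (20380) were used, those with several (691) or none (1555) were not. Values became log2(value + 5). Probe sets above 74.6 (the 40th percentile) on 10 or more arrays were kept, and the brightest probe set stood for each gene, which left 8769 of 12393 genes. All 80 arrays entered 1 limma 3.58.1 fit (R 4.3.3, statmod 1.5.0) with cell means per genotype, the title number as a random block (consensus correlation 0.159), an intensity trend and robust moderation. Tests were two-sided, with Benjamini-Hochberg adjustment over all tested genes and a threshold of 0.05. Array number limits precision. The E2f3 level was also tested by a permutation test with 100000 resamples.

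A list score averages, over its tested members, how far the log2 value of a tumour lies from that gene's mean over the 80 arrays. Lists are described by counts and medians, with no set test. Named genes were the 12 higher and 12 lower with the smallest p, E2F and G1 genes, chromosome 13 genes within 5 Mb of E2f3 or with an unadjusted p under 0.05, the 3 members with the smallest p and the 2 brightest of every other list, probe sets called with the other probe sets of their gene, E2f3 and Myc; the text gives a selection of these. Rbbp9, Mapre1 and the defining cell type markers are named besides. The comparison, the lists and this rule were chosen with earlier results of these data known. The scripts were tested on simulated data. Alternatives covered the pseudocount, filter, normalization, block, samples, moderation and choice of probe set, and leaving out each title number. Calculations used Python 3.11.15, numpy 2.4.6, pandas 2.3.3 and scipy 1.17.1.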

Additional observations from a re-analysis of the deposited data

How the results depend on the processing

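The count of genes at an adjusted p under 0.05 against wild type was 0 under each alternative and without each title number. The count at an unadjusted p under 0.05, 58 in the report, became 179 with no filter on low values, 34 with a stricter filter, 126 with no random block and 26 with 1 mean per title number. It ranged from 43 to 135 over the leave-one-out fits, and was 102, 135, 107 and 124 without heterozygous numbers 3471 and 3702 and wild-type numbers 3885 and 4033. Against the other 3 backgrounds 1 gene, in place of 3, was called with 1 mean per title number. The count of probe sets called was 0, in place of 1, with the stricter filter, which removed the Yae1d1 probe set, with 1 mean per title number, and with only the 40 arrays, where its adjusted p was 0.131. For the last 2 the cause was not tested. Fold changes that turned sign were all small. With 1 mean per title number they were E2f5 0.020, Tfdp1 0.0019, Ccna2 0.089, Cdkal1 0.036, Pcna 0.0047 and B2m -0.068. With only the 40 arrays Ccna2 was 0.0020, after quantile normalization E2f4 was -0.013, and averaged over probe sets Rbl2 was 0.036. The cause of these was not tested. Over the leave-one-out fits the fold changes that crossed 0 ranged as follows: E2f4 from -0.035 to 0.058, E2f5 from -0.043 to 0.012, Tfdp1 from -0.089 to 0.016, Rbl2 from -0.11 to 0.0066, Ccnd1 from -0.11 to 0.22, Ccnd2 from -0.20 to 0.095, Ccna2 from -0.059 to 0.055, Cdkn1b from -0.11 to 0.021, Sox4 from -0.0085 to 0.051, Cdkal1 from -0.10 to 0.0057, Mrs2 from -0.075 to 0.0055, Myc from -0.054 to 0.014, Csn3 from -0.035 to 0.10 and B2m from -0.058 to 0.10. No paired analysis was possible because each title number lies within 1 genotype, so that no number joins a heterozygous to a wild-type tumour. Signal close to the filter limits E2f3, which passed it in 15 of 20 heterozygous tumours.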

Other observations

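Lists not described in the report also held 0 genes past the adjusted threshold. All 4 tested genes of B and plasma cells were higher in heterozygous tumours, with a median fold change of 0.44, and remained so without title number 4140, with a median of 0.27. Ighm, the heavy chain of IgM, was 8.16 ± 1.02 against 7.63 ± 0.65 (SD, n = 20 each). The B-cell receptor genes Cd79a and Cd79b passed the signal threshold in 0 tumours of either group. Derl3, which acts in the disposal of misfolded secretory proteins, was at 0.39 (SE 0.25). Of the unfolded protein response genes, 22 of 29 were higher (median 0.03), and 13 without wild-type number 3880 (median -0.0055), with Ppp1r15a, a phosphatase subunit that restores translation, at 0.20 (SE 0.13).

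Immediate early and heat shock genes were 21 higher of 28 (median 0.13), a count that was the same without 4140 (median 0.08), and the median was 0.07 without wild-type number 3883. Fos was 10.67 ± 0.45 against 10.24 ± 0.63 (SD, n = 20 each) and Dusp1, which removes MAPK phosphates, was at 0.37 (SE 0.22). Wnt output genes were 12 higher of 17 (median 0.08), with the ligand gene Wnt6 at 0.34 (SE 0.14, unadjusted p = 0.0202), and 8 of 17 without 4140. Lipid synthesis genes were 14 higher and 16 lower (median -0.01), and 21 higher and 9 lower without 4140 (median 0.05). The median turned above 0 in 8 of the 26 fits without 1 title number. The desaturase genes Fads1 and Fads2 were each at 0.46 (SE 0.33 and 0.31). Clock genes were 10 higher of 16 (median 0.02), and 6 without 4140 (median -0.02). With 1 mean per title number the median was -0.02. The list includes Arntl at 0.19 (SE 0.12) and Per1 at 0.22 (SE 0.16). Receptor kinase genes were 10 higher of 15 (median 0.05), and 8 without 4140 (median 0.0067). The largest fold change was that of Fgfr3, 0.68 (SE 0.40). Met had 1 heterozygous tumour at 13.24 beside a heterozygous median of 7.06 and a wild-type maximum of 7.89.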
